A study of Brassica napus with 22 samples.

Results

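The genes described here are the oilseed rape copies of enzymes that make and break down gibberellin (GA) and abscisic acid (ABA), followed through the compartments of a young seed. They were chosen by their best Arabidopsis protein match in the deposited table, at 21 loci: 11 of GA metabolism and 10 of ABA metabolism. The rule found 92 of the 101040 genes in the table, 51 GA copies and 41 ABA copies. The plants were Brassica napus of the cultivar Topas, kept in long days, and their seeds were sampled at the globular stage, an early stage with a ball-shaped embryo. The 4 filial compartments, which come from fertilisation, were the embryo proper (EP, 2 libraries) and the micropylar (MCE, 4), peripheral (PEN, 2) and chalazal (CZE, 3) regions of the endosperm, the tissue that feeds the embryo. The 3 maternal compartments were chalazal proliferating tissue (CPT, 3 libraries), inner seed coat (ISC, 3) and outer seed coat (OSC, 2). Whole seeds (3 libraries), which hold all of these tissues, were profiled as well. All groups share cultivar, stage and growth conditions. For each gene and group the table holds 1 combined value in FPKM, a level scaled by transcript length and by the number of mapped fragments, rounded to whole numbers. Spread between replicates, p-values and intervals could therefore not be given, and read depth is unknown. In bulk samples of this kind, fewer cells of a type and less RNA per cell cannot be told apart.

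GA is made from geranylgeranyl diphosphate by the plastid cyclases CPS and KS, then oxidised. GA20ox enzymes build the precursors, GA3ox enzymes make the bioactive hormone and GA2ox enzymes inactivate it. ABA is cut from carotenoids by NCED, the step usually taken as limiting, and finished in the cytosol by ABA2 and AAO3, while the CYP707A cytochromes inactivate it by hydroxylation. In seeds of Arabidopsis the hormones act against each other: ABA favours maturation and dormancy, and GA favours growth and germination. In what follows a copy carries the symbol of its Arabidopsis match, several copies share a symbol, and roles are those known from Arabidopsis.

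Most copies were low or silent. Of the 92 copies, 39 (42.4%) were listed at 0 in all 8 columns, against a background of 32.3% of all genes with values, and 26 reached at least 1 but less than 5 FPKM. At 5 FPKM or more in at least 1 column stood 27 copies, or 29.3%, against a background of 44.5%. Of these 27, 12 were GA copies, the highest at 25 FPKM, and 15 were ABA copies, the highest at 73 FPKM. Deposited lengths of the copies ran from 174 to 4251 bases, with a median of 1238. Member copies lay next to each other in the gene numbering in 9 pairs, some of them short models that may be pieces of 1 gene: the NCED3-matching BnaC05g39180D (948 bases) and BnaC05g39190D (768 bases) lie 81 bases apart on chromosome C05, and both were listed at 0. How reads shared between near-identical copies were assigned is not given in the sources used here, so the split of a value between copies is uncertain.

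The columns were checked against marker genes, each given as the sum over its copies. The embryo markers LEC1, WOX2, WOX9 and MP summed to 659 FPKM in EP and to at most 61 elsewhere in the compartments. AGL35 and IPT8 summed to 2537 FPKM in CZE, to 507 in PEN and to at most 18 in any other compartment. The endosperm regulator MINI3 was at 705 FPKM in MCE, against 617 in PEN, and ZHOUPI at 58 against 1, while both IKU2 copies were listed at 0 in every column. The peripheral list, AGL62 and TFL1, was at 1168 FPKM in PEN and higher, at 1432, in CZE, so it did not set PEN apart. TT16, a regulator of ISC, was at 1112 FPKM in that tissue but higher in CPT, at 1768. BAN, another marker of ISC, was at 1 FPKM there against 56 in CPT. TTG2, on the same list, was at 2 FPKM in ISC against 61 in OSC, so no marker of the list was highest in ISC. GL2, an epidermal regulator, was at 47 FPKM in OSC and at 0 to 2 in the other 6 compartments. The other outer seed coat markers did not set OSC apart: MUM4 was at 33 FPKM in OSC and 56 in MCE, and MUM2 at 0 in OSC and 52 in PEN. The share of FPKM in rRNA and organelle genes ran from 0.00762% in the whole seed and 4.16% in CZE to 36.9% in MCE, and FPKM are relative to such totals. The calls below were therefore repeated after 3 other scalings of the columns. Of the 17 markers found, 9 were highest in the compartment they stand for.

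**Figure D1:**
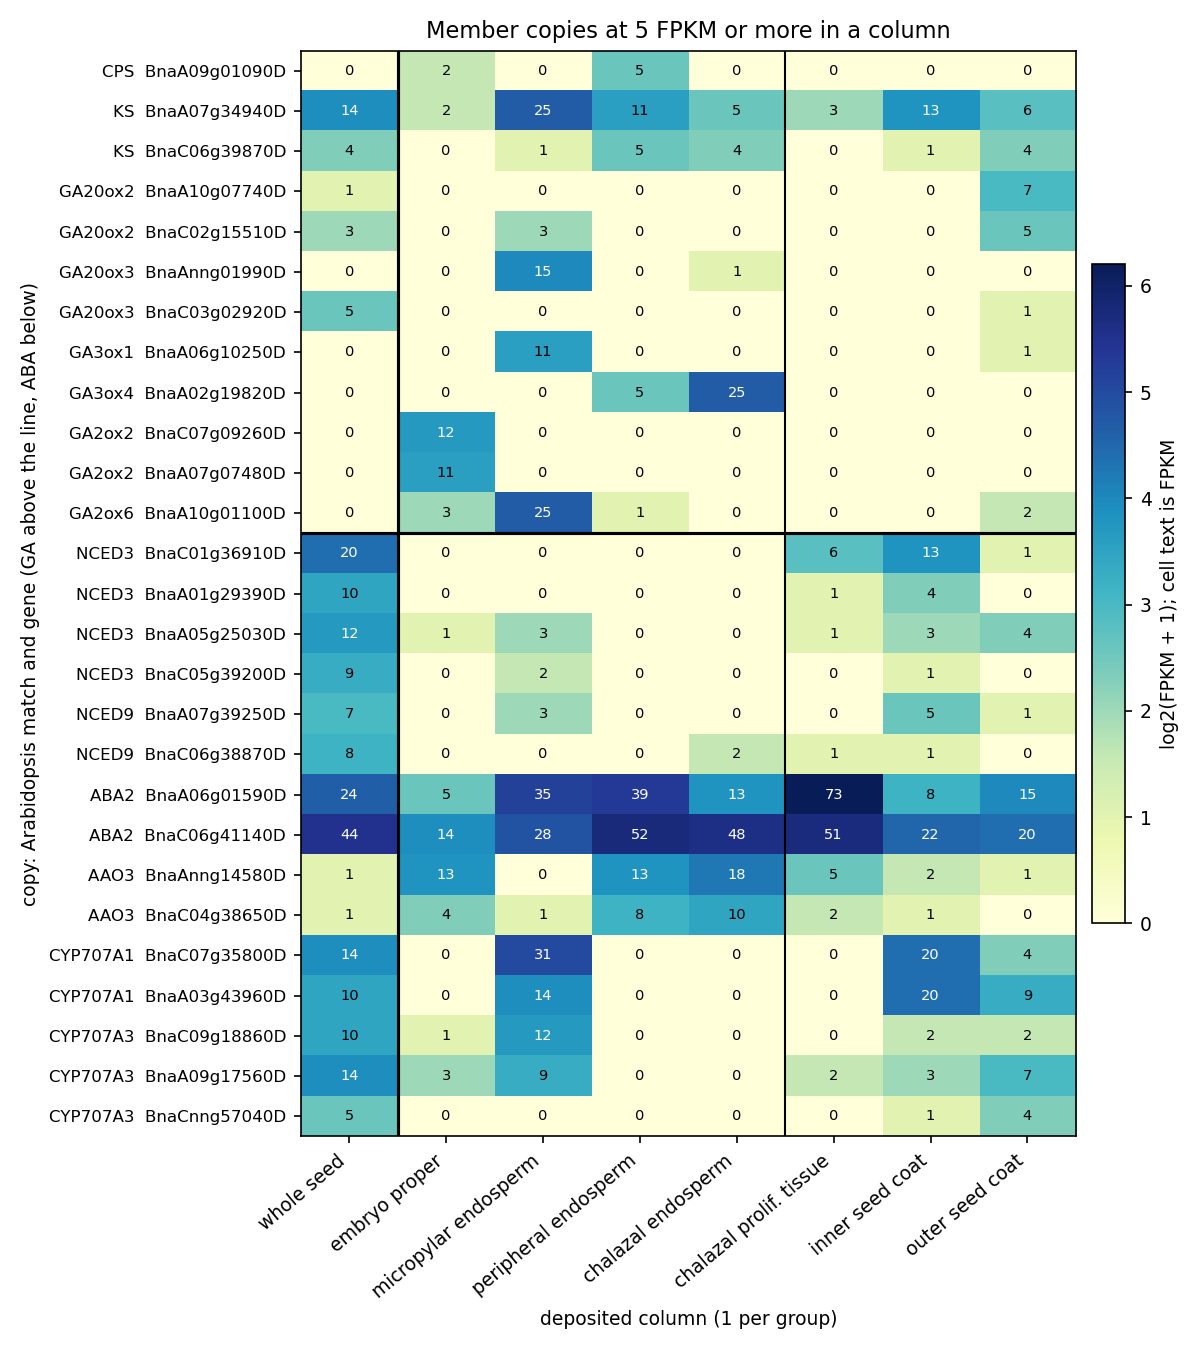
FPKM (numbers) and log2(FPKM + 1) (colour) of the 27 copies at 5 FPKM or more in at least 1 column, with GA copies above the horizontal line and ABA copies below. Columns are the whole seed, the 4 filial compartments and the 3 maternal compartments. The ABA2 copies were listed above 0 in each column, the NCED copies were highest in the whole seed, and most GA copies were seen in 1 or 2 compartments. Of the 6 NCED copies shown, 2 reached 5 FPKM in a compartment, and the others only in the whole seed.

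Levels of the first GA steps (CPS, AT4G02780, and KS, AT1G79460) were highest for 1 KS copy. BnaA07g34940D (chromosome A07, 23654989 to 23658810, as given in the deposited table) had 25 FPKM in MCE, 13 in ISC and 11 in PEN. It had 6 FPKM in OSC, 5 in CZE, 3 in CPT, 2 in EP and 14 in the whole seed. The second KS copy, BnaC06g39870D, reached 5 FPKM in PEN, 4 in CZE and OSC, and at most 1 elsewhere in the compartments. CPS, the enzyme before KS, was weaker: BnaA09g01090D was at 5 FPKM in PEN and 2 in EP, with 0 in every other column. BnaC09g00230D was at 4 FPKM in EP, 3 in PEN and in CZE and 1 in MCE. No CPS copy was above 0 in a maternal compartment, where KS copies summed to 14 FPKM in ISC. The other 3 CPS copies were at 0 or 1 FPKM. KS was thus seen on both sides of the seed and CPS on the filial side alone, at levels near the lowest that whole numbers resolve.

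Copies of GA20ox (AT4G25420, AT5G51810 and AT5G07200), 21 in number, were mostly at or near 0, and the 4 that reached 5 FPKM differed in place. The GA20ox3 copy BnaAnng01990D had 15 FPKM in MCE, 1 in CZE and 0 in each other column. A second GA20ox3 copy, BnaC03g02920D, had 5 FPKM in the whole seed, 1 in OSC and 0 elsewhere. GA20ox2 was seen in OSC, where BnaA10g07740D had 7 FPKM and BnaC02g15510D had 5. Outside OSC, BnaA10g07740D stood at 0 in the other 6 compartments and 1 in the whole seed, and BnaC02g15510D had 3 FPKM in MCE, 3 in the whole seed and 0 elsewhere. The 5 GA20ox1 copies reached at most 2 FPKM. Summed over all copies, GA20ox had 18 FPKM in MCE and 14 in OSC, against at most 4 in each other compartment and 0 in CPT and ISC.

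The GA3ox step (AT1G15550, AT1G80340, AT4G21690 and AT1G80330), which yields the bioactive hormone, was seen in different endosperm regions through different copies. The GA3ox4 copy BnaA02g19820D (A02, 12278029 to 12279275) had 25 FPKM in CZE, 5 in PEN and 0 in each other column. It lies 713 bases from BnaA02g19810D, a GA3ox2-matching copy that was listed at 0 in all 8 columns. On chromosome C02 the same arrangement of a GA3ox2 match and a GA3ox4 match was present, and there the GA3ox4 copy BnaC02g23190D reached 2 FPKM in MCE and at most 1 elsewhere. The GA3ox1 copy BnaA06g10250D had 11 FPKM in MCE, 1 in OSC and 0 elsewhere. GA3ox2 and GA3ox3 copies stayed at or below 2 FPKM. Over all 13 copies the sum was 25 FPKM in CZE, 13 in MCE and 8 in PEN. It was 2 in EP and 1 in each maternal compartment.

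GA2ox (AT1G30040 and AT1G02400), the inactivating class, was seen mainly in EP and MCE. The GA2ox2 copies BnaC07g09260D and BnaA07g07480D had 12 and 11 FPKM in EP and 0 in every other column. Being above 0 in 1 column only, both failed the filter used for the comparisons and have no call. A further GA2ox2 copy, BnaC03g59610D, was at 2 FPKM in EP alone. The GA2ox6 copy BnaA10g01100D (A10, 569329 to 571918) had 25 FPKM in MCE, 3 in EP, 2 in OSC, 1 in PEN and 0 elsewhere. Within a column, where the scale of the column cancels, GA2ox copies held 82.4% of the summed FPKM of GA20ox, GA3ox and GA2ox in EP and 44.6% in MCE. The share was 21.1% in OSC, 10% in PEN and 0 in CZE. These shares rest on sums of at most 56 FPKM in a column and on few copies, and they cover only the 9 oxidase loci among the members. With the other GA20ox and GA2ox loci included, a sum added after the values were seen, the share was 79.5% in EP, 26.9% in MCE, 73.0% in PEN, 7.16% in CZE and 28.6% in OSC. GA2ox thus held most of the wider sum in PEN, but little of the sum over the member loci there.

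NCED (AT3G14440, AT1G30100, AT3G24220 and AT1G78390), which opens the ABA branch, was highest in ISC among the compartments, and was low. The NCED3 copy BnaC01g36910D (C01, 36059468 to 36061576) had 0 FPKM in all 4 filial compartments, against 13 in ISC, 6 in CPT and 1 in OSC. BnaA01g29390D, also NCED3, was at 4 FPKM in ISC and 1 in CPT, and at 0 in the other 5 compartments. BnaA05g25030D was spread more evenly, with 4 FPKM in OSC, 3 in ISC, 3 in MCE and at most 1 elsewhere in the compartments. In Arabidopsis NCED6 and NCED9 are known for ABA made in the seed. The NCED9 copy BnaA07g39250D had 5 FPKM in ISC and 3 in MCE, and the other, BnaC06g38870D, had at most 2 in a compartment. Both NCED6 and both NCED5 copies were at or below 1 FPKM in every column. The sum over all 16 NCED copies was 29 FPKM in ISC, 9 in CPT, 8 in MCE and 7 in OSC. It was 2 in CZE, 1 in EP and 0 in PEN.

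The last steps of ABA synthesis had the highest summed level of the 7 classes and the smallest share in 1 compartment. ABA2 (AT1G52340), which makes abscisic aldehyde, was above 0 in all 8 columns through 2 copies. BnaA06g01590D (A06, 987014 to 988784) had 73 FPKM in CPT, 39 in PEN and 35 in MCE, 15 in OSC, 13 in CZE, 8 in ISC and 5 in EP. BnaC06g41140D had 52 FPKM in PEN, 51 in CPT, 48 in CZE and 28 in MCE, 22 in ISC, 20 in OSC and 14 in EP. In the whole seed the A06 copy had 24 and the C06 copy 44 FPKM. For both copies EP was the lowest of the 7 compartments. AAO3 (AT2G27150), the oxidase that forms ABA itself, had its own distribution. BnaAnng14580D, whose deposited length of 775 bases is short beside the 4251 bases of the C04 copy, had 18 FPKM in CZE, 13 in EP, 13 in PEN and 5 in CPT. It had 2 FPKM in ISC, 1 in OSC and 0 in MCE. BnaC04g38650D kept nearly the same order at lower values, with 10 FPKM in CZE, 8 in PEN, 4 in EP, 2 in CPT and at most 1 elsewhere. Both AAO3 copies had 1 FPKM in the whole seed.

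The ABA-inactivating CYP707A copies (AT4G19230, AT2G29090, AT5G45340 and AT3G19270) were at or near 0 in PEN and CZE, where AAO3 was high. CYP707A1 was carried by BnaC07g35800D (C07, 38094740 to 38097091) and BnaA03g43960D (A03, 22188554 to 22190997). The first had 31 FPKM in MCE, 20 in ISC and 4 in OSC, and the second had 14 FPKM in MCE, 20 in ISC and 9 in OSC. Both were listed at 0 in EP, PEN, CZE and CPT, and had 14 and 10 FPKM in the whole seed. The leading CYP707A3 copies were also highest in MCE, at 12 FPKM for BnaC09g18860D and 9 for BnaA09g17560D, while BnaCnng57040D had 4 in OSC and 1 in ISC. BnaA09g17560D further had 7 FPKM in OSC and 3 in EP and in ISC. CYP707A2 and CYP707A4 copies reached at most 2 FPKM. Over all 18 copies, the sum was 67 FPKM in MCE, 47 in ISC and 26 in OSC. It was 7 in EP, 3 in CPT, 1 in CZE and 0 in PEN.

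Markers of the seed coat were read in MCE beside these values. TT16 was at 10 FPKM in MCE against 1112 in ISC, and GL2 was at 0 against 47 in OSC. TTG2, which is on the inner list, was at 0 in MCE, 2 in ISC and 61 in OSC. Of the 6 markers in both seed coat lists, 4 were above 0 in MCE, led by MUM4 at 56 FPKM and BAN at 14. The inner list summed to 24 FPKM in MCE, against 1115 in ISC, nearly all of it TT16, and the outer list to 57, against 80 in OSC. The CYP707A1 copy BnaC07g35800D was higher in MCE than in either seed coat layer, while for BnaA03g43960D ISC was highest. The part of seed coat RNA in the MCE values was not tested.

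Set within each column, the share of CYP707A in the summed ABA classes differed between tissues. CYP707A copies held 48.2% of the summed FPKM of the NCED, ABA2, AAO3 and CYP707A copies in MCE, 42.3% in ISC and 37.7% in OSC. The share was 15.9% in EP, 2.10% in CPT, 1.08% in CZE and 0 in PEN. The tissues with the lowest share had the highest sums of ABA2 and AAO3: 131 FPKM in CPT, 113 in PEN and 90 in CZE, against 35 to 64 in the other 4 compartments. These sums are part of the total from which the share is taken. Set against NCED alone the order differed. The ratio of CYP707A to NCED was 8.38 in MCE, 7 in EP, 3.71 in OSC, 1.62 in ISC, 0.5 in CZE and 0.333 in CPT. In EP it rests on an NCED sum of 1 FPKM, and in PEN NCED was 0. The compartment with the highest sum depends on scaling for 4 of the 7 classes. With the common median it was PEN for CPS and KS, OSC for GA20ox and ISC for CYP707A, and with the common sum it was OSC for GA20ox and MCE for GA3ox.

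**Figure D2:**
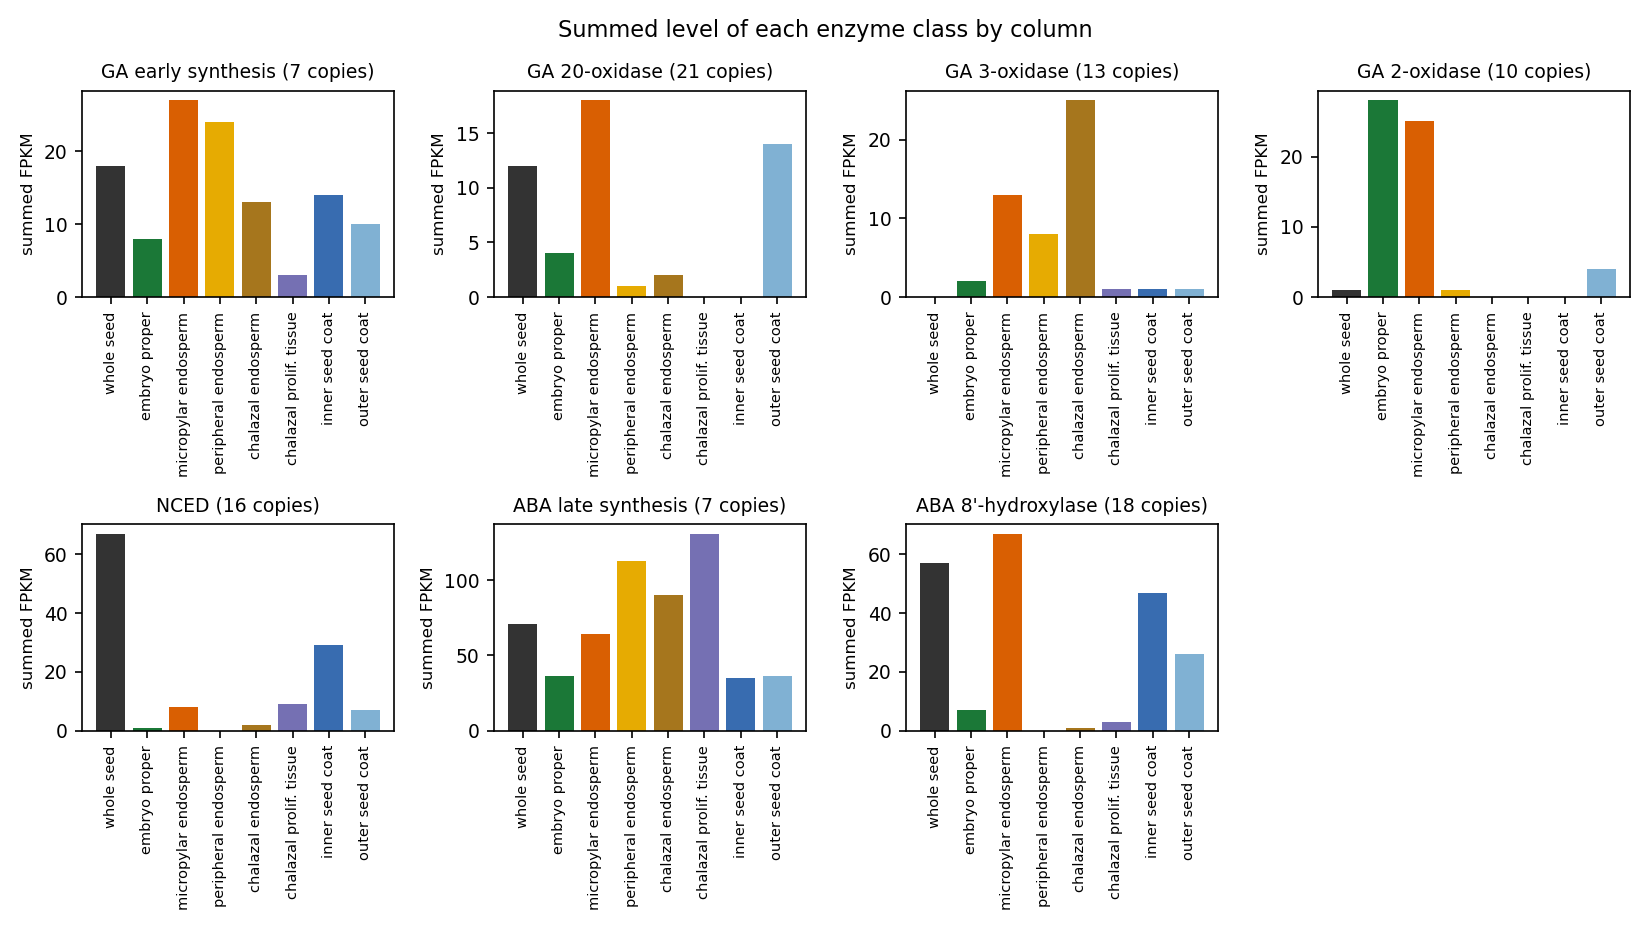
Summed FPKM of all copies of each enzyme class (bars, from 0, each panel with its own scale) in the whole seed, the 4 filial and the 3 maternal compartments. CYP707A copies (ABA 8'-hydroxylase) summed to 67 FPKM in MCE and to 0 in PEN, where ABA2 and AAO3 (ABA late synthesis) summed to 113.

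The copies at 5 FPKM or more in a compartment numbered 21, and their highest compartment was most often MCE. It was highest for 7 of the 21, against 18.6% of all 43705 genes that reached 5 FPKM in a compartment. PEN was highest for 3 copies (background 9.92%), CZE for 3 (12.8%), ISC for 3 (9.53%), EP for 2 (21.2%), OSC for 2 (9.39%) and CPT for 1 (14.3%). The order depends on the scale of the columns: with columns scaled to a common median MCE was highest for 4 copies and ISC for 6. GA copies had more of their level in 1 compartment than ABA copies. The highest compartment held a median of 83.3% of the sum over compartments for the 11 GA copies and 42.7% for the 10 ABA copies, against 41.7% for all genes at 5 FPKM or more. The median of the highest level was 11 FPKM for the GA copies, 15.5 for the ABA copies and 18 for all genes, and the part of low level in this difference was not tested.

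Filial and maternal compartments were compared by the mean of log2(FPKM + 1) on each side. Calls required a difference of 1 log2 unit or more, which is 2-fold on this scale, together with a mean of 5 FPKM or more on the higher side. Such calls describe size and carry no error rate. A difference against a side at 0 depends on the added 1 and is no bound. Of the 92 copies, 32 reached 1 FPKM in at least 2 of the 8 columns and could be called, and the other 60 have no call. On the filial side 4 copies were higher, against a background of 10.1% of the 54278 genes compared, and 2 were lower, against 16.9%. The copies higher on the filial side were GA3ox4 BnaA02g19820D (difference 1.82), the AAO3 copies BnaC04g38650D (1.63) and BnaAnng14580D (1.24), and GA2ox6 BnaA10g01100D (1.40). Each of these 4 calls was lost under at least 1 of the 3 other scalings of the columns. The lower copies were NCED3 BnaC01g36910D (-2.54) and CYP707A1 BnaA03g43960D (-1.59), and both kept their call under all 3 scalings. GA3ox4 and GA2ox6 passed the filter only through filial columns, and NCED3 BnaC01g36910D only with its maternal columns. The median difference of the 32 copies was -0.16, and that of all genes compared was -0.17.

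Each compartment was then set against the other 6. In MCE 8 copies were higher (background 19.4%) and 2 lower (18.2%). The higher ones were CYP707A1 BnaC07g35800D (difference 3.88) and BnaA03g43960D (2.62), CYP707A3 BnaC09g18860D (3.01) and BnaA09g17560D (1.89), GA2ox6 BnaA10g01100D (3.94), GA20ox3 BnaAnng01990D (3.83), GA3ox1 BnaA06g10250D (3.42) and KS BnaA07g34940D (1.97). All 8 kept their call under the 3 other scalings, and GA2ox6, GA20ox3 and GA3ox1 lost it with a filter of 5 FPKM in at least 2 columns. The lower ones were AAO3 BnaAnng14580D (-2.84) and GA3ox4 BnaA02g19820D (-1.21), and the call of GA3ox4 was lost under each of the 3 scalings.

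In EP 1 copy was higher (background 20.1%), AAO3 BnaAnng14580D at 1.60, and 6 were lower (17.2%). Among the lower were ABA2 BnaA06g01590D (-2.03) and BnaC06g41140D (-1.23), KS BnaA07g34940D (-1.66), CYP707A1 BnaC07g35800D (-1.95) and BnaA03g43960D (-1.94), and GA3ox4 BnaA02g19820D (-1.21). The call of GA3ox4 was lost under each of the 3 scalings, that of BnaC07g35800D without the MCE column, and that of BnaC06g41140D with columns scaled to a common sum. In PEN 6 copies were higher (background 13.7%) and 2 lower (11.4%). AAO3 BnaC04g38650D (1.61) and BnaAnng14580D (1.60) were higher under every scaling. ABA2 BnaA06g01590D (1.16), KS BnaC06g39870D (1.48), CPS BnaA09g01090D (2.32) and GA3ox4 BnaA02g19820D (1.80) lost their calls with the common sum. The KS and CPS copies also lost theirs with a filter of 5 FPKM in at least 2 columns. The lower copies were both CYP707A1 copies, with the same differences as in EP, since they were at 0 in each.

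CZE had 3 copies higher (background 13.6%) and 3 lower (15.5%). GA3ox4 BnaA02g19820D was higher by 4.27, AAO3 BnaAnng14580D by 2.12 and AAO3 BnaC04g38650D by 1.95, the last of these not with the common sum. The lower copies were the CYP707A1 pair and GA2ox6 BnaA10g01100D (-1.55), and GA2ox6 lost its call with the common median, under quantile normalisation and without the MCE column. CPT had 2 higher (16.5%), ABA2 BnaA06g01590D at 2.2 and NCED3 BnaC01g36910D at 2.01, and both held under all 3 scalings. Lower in CPT were 5 copies (11.2%): both CYP707A1 copies, GA2ox6, GA3ox4 and KS BnaA07g34940D (-1.18). Of these, GA3ox4 lost its call under each scaling, and KS and GA2ox6 with the common median and without the MCE column. GA2ox6 also lost it under quantile normalisation. Without the MCE column CYP707A1 BnaC07g35800D had no lower call in PEN, CZE or CPT. ISC had 4 higher (15.4%): CYP707A1 BnaA03g43960D (3.19) and BnaC07g35800D (3.17), NCED3 BnaC01g36910D (3.17) and NCED9 BnaA07g39250D (2.08), the last of these not under quantile normalisation. Lower there were 3 copies (6.99%), ABA2 BnaA06g01590D at -1.35, GA2ox6 and GA3ox4, and each lost its call with the common median. GA2ox6 and GA3ox4 also lost it under quantile normalisation, GA3ox4 with the common sum, and GA2ox6 without the MCE column. With a filter of 5 FPKM in at least 2 columns GA2ox6 had no lower call in CZE, CPT or ISC. OSC had 4 higher (14.8%), namely GA20ox2 BnaA10g07740D (3) and BnaC02g15510D (2.25), CYP707A1 BnaA03g43960D (1.94) and CYP707A3 BnaA09g17560D (1.52). The call of BnaC02g15510D was lost under quantile normalisation, and both GA20ox2 calls were lost with a filter of 5 FPKM in at least 2 columns. With the common sum 8 copies were higher, against 24.4% of all genes compared under that scaling. The 2 lower (10.4%) were AAO3 BnaAnng14580D (-1.67) and GA3ox4, and GA3ox4 lost its call under each scaling. These comparisons share their columns, so that the high value of a copy in 1 compartment also enters its lower calls in the others. Some copies passed the filter only with the column in which they were called higher. These were GA20ox3 BnaAnng01990D and GA3ox1 BnaA06g10250D in MCE, and CPS BnaA09g01090D in PEN. The same held for GA3ox4 BnaA02g19820D in PEN and CZE, and for GA20ox2 BnaA10g07740D in OSC. Such calls add nothing to the values themselves.

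Of the 19 ABA copies compared, 11 were called higher in the whole seed than the mean of log2(FPKM + 1) over the 7 compartments. Fewer ABA copies, 8, were above each single compartment. Against the 7 compartments, 12 copies were higher in the whole seed (background 16.1%) and 1 lower (9.6%). The median difference of the 32 copies was 0.88, against 0.06 for all genes. All 6 NCED copies that reached 5 FPKM in any column were among the 12. With a filter of 5 FPKM in at least 2 columns 6 copies were higher (background 24.1% under that filter). There 4 of the NCED copies (NCED3 BnaA01g29390D, BnaA05g25030D and BnaC05g39200D, and NCED9 BnaC06g38870D) no longer had a call. These 4 reached 5 FPKM in the whole seed alone. Choosing copies at 5 FPKM in any column thus fixed in advance that they lie above each compartment, and their order adds nothing to the values. NCED3 BnaC01g36910D had 20 FPKM in the whole seed, against 13 in the highest compartment, ISC. NCED3 BnaA05g25030D had 12 FPKM in the whole seed, against 4 in OSC. BnaA01g29390D had 10 against 4 in ISC, and BnaC05g39200D had 9 against 2 in MCE. For NCED9, BnaC06g38870D had 8 FPKM in the whole seed against 2 in CZE, and BnaA07g39250D had 7 against 5 in ISC. In each case the whole seed value was above all 7 compartments. Summed over the NCED copies, the whole seed had 67 FPKM, against 29 in ISC and at most 9 in each other compartment. The whole seed column also had the lowest total, 655846 FPKM, and the lowest share of rRNA and organelle genes, and the part of these in the result was not tested.

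CYP707A3 copies gave a mixed picture. BnaA09g17560D had 14 FPKM in the whole seed, against 9 in MCE, and BnaCnng57040D had 5 against 4 in OSC, a gap of the size of the rounding. BnaC09g18860D, with 10 FPKM in the whole seed, stayed below its 12 FPKM in MCE, and both CYP707A1 copies stayed below ISC. The GA20ox3 copy BnaC03g02920D had 5 FPKM in the whole seed, against 1 in OSC, and passed the filter only with the whole seed column. In all, 9 of the 15 copies at 5 FPKM or more in the whole seed were above each of the 7 compartments there, 8 of them ABA copies. The background was 6.68% of all genes compared, and 16.6% of the genes at 5 FPKM or more in the whole seed. The count was 10 with the common median and with quantile normalisation and 11 with the common sum. Neither ABA2 nor AAO3 shared in this: ABA2 BnaA06g01590D had 24 FPKM in the whole seed, against 73 in CPT, and AAO3 BnaAnng14580D had 1, against 18 in CZE.

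GA copies were often missing from the whole seed. Of the 21 copies at 5 FPKM or more in a compartment, 7 were listed at 0 in the whole seed, all of them GA copies, against 18.1% of all genes that reached this level in a compartment. They were CPS BnaA09g01090D, GA20ox3 BnaAnng01990D, GA3ox1 BnaA06g10250D, GA3ox4 BnaA02g19820D, both embryo GA2ox2 copies and GA2ox6 BnaA10g01100D. Each had its highest value in a filial compartment. The markers of those compartments were also low in the whole seed, with the embryo list at 30 FPKM, against 659 in EP, and the CZE list at 8, against 2537 in CZE. The seed coat markers varied. The inner list summed to 349 FPKM in the whole seed, against 1824 in CPT and 1115 in ISC, and the outer list to 51 in the whole seed, against 80 in OSC. Within these lists TT16 was at 164 FPKM in the whole seed, against 1768 in CPT, and BAN at 172, against at most 56 in a compartment. The part of tissue proportions in these differences was not tested.

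**Figure D3:**
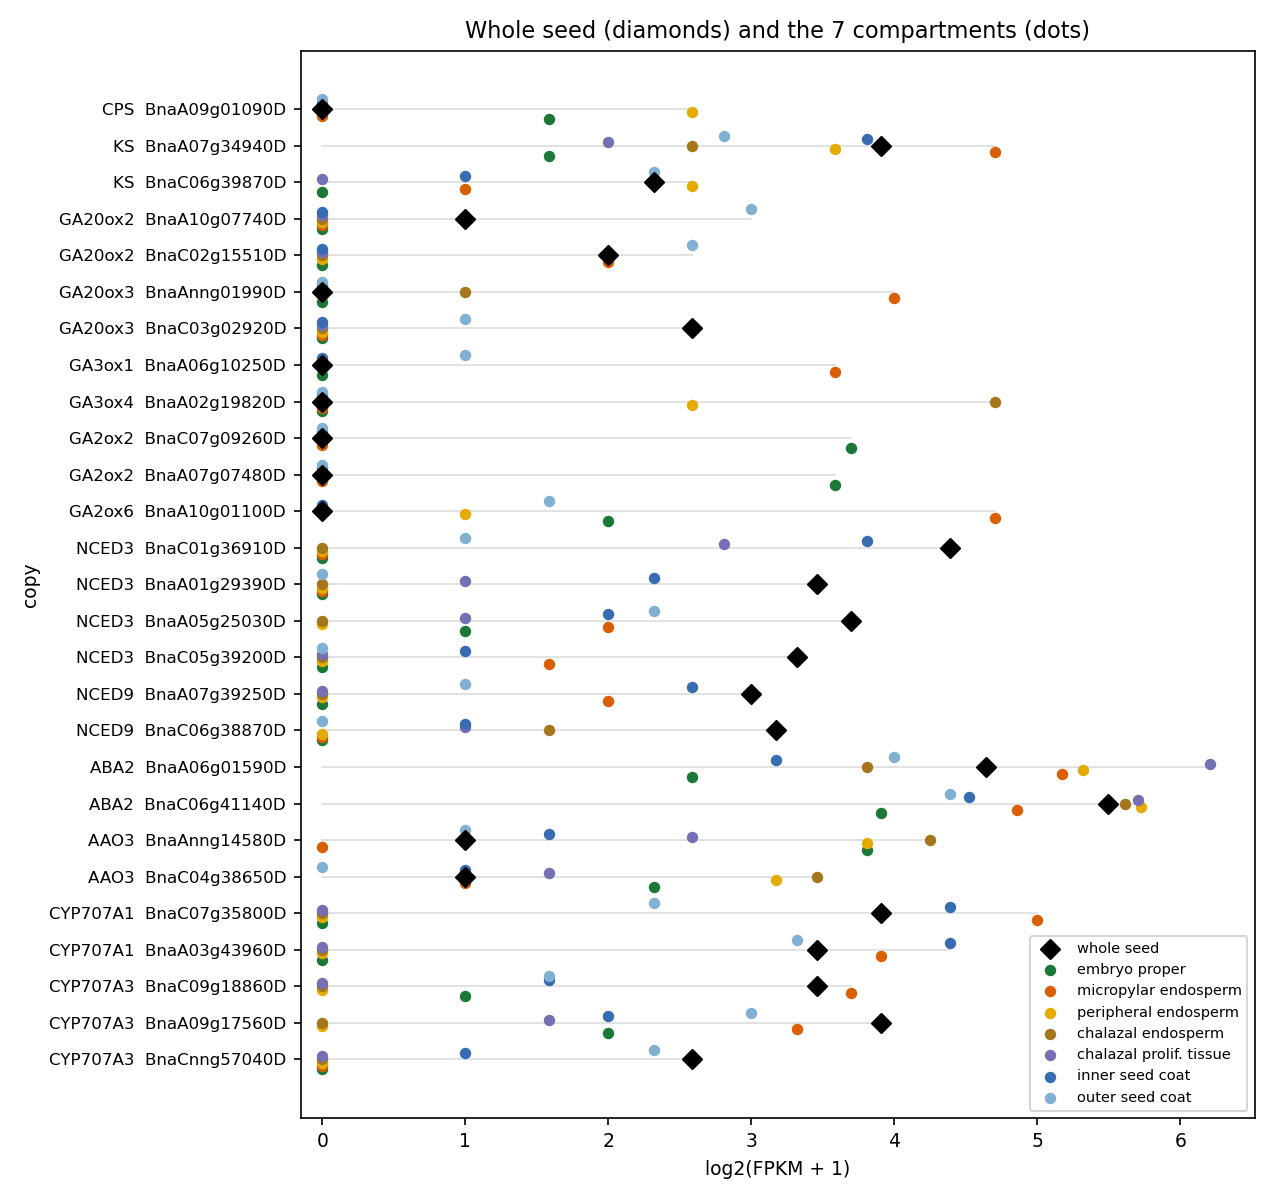
log2(FPKM + 1) of the 27 copies at 5 FPKM or more in a column, in the whole seed (diamonds) and in the 7 compartments (dots, set slightly apart in height so that they can be seen). For all 6 NCED copies the diamond lies to the right of every dot, as for BnaC01g36910D with 20 FPKM in the whole seed and 13 in ISC. Only 2 of these 6 reached 5 FPKM in a compartment, and the others are shown through their whole seed value alone. For 7 GA copies the diamond is at 0.

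Copies of the A and C subgenomes, the genomes of the 2 parent species that oilseed rape combines, had unequal shares by class. Over the compartments, copies of the A subgenome held 74.1% of the summed FPKM of the GA copies (183 against 64 FPKM in C copies) and 47.9% of that of the ABA copies (341 against 371). For all genes without rRNA and organelle genes the A share was 46.3%. At 7 loci exactly 1 A and 1 C copy passed the filter for the comparisons, and these are putative pairs. KS, GA3ox4 and NCED9 have 1 A and 1 C copy in all. CPS, GA20ox3, ABA2 and CYP707A1 have further copies that did not pass, with 4 A and 6 C copies in all for GA20ox3. The A copy of KS, BnaA07g34940D, exceeded its C partner in all 7 compartments, by 25 against 1 FPKM in MCE and 13 against 1 in ISC. GA3ox4 and GA20ox3 were carried by the A copy, at 25 against 0 FPKM in CZE and 15 against 0 in MCE. GA3ox1 and GA2ox6 had only A copies above 1 FPKM. Other GA loci had less than 50% in A copies: the A share was 36.8% for CPS, 40.7% for GA2ox2, 43.8% for GA20ox2 and 0 for GA20ox1. Over the compartments the CPS pair summed to 7 FPKM for the A copy and 11 for the C copy, and the NCED9 pair to 9 and 4. The CYP707A1 copies had 20 FPKM each in ISC, with 14 for the A copy and 31 for the C copy in MCE. For ABA2 the A copy was higher in CPT, at 73 against 51 FPKM, and lower in CZE, at 13 against 48.

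**Figure D4:**
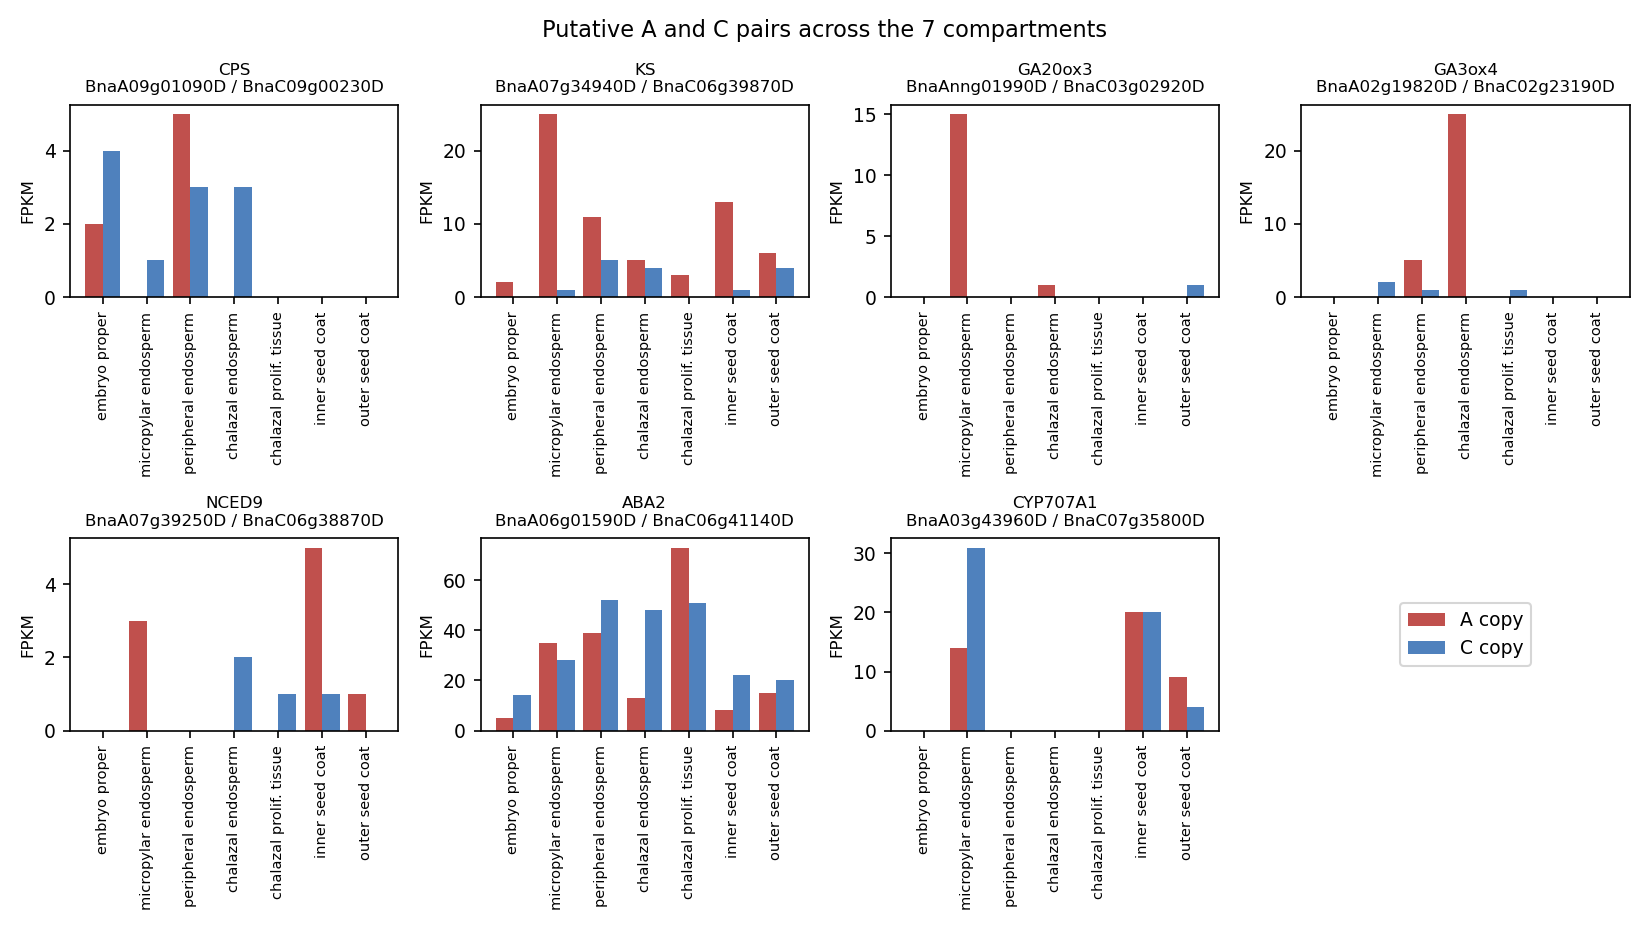
FPKM of the A copy (red, left) and the C copy (blue, right) at the 7 loci with exactly 1 compared copy of each. Values are for the 7 compartments, with bars from 0 and a scale of its own in each panel. The KS, GA20ox3 and GA3ox4 panels are filled mainly by the A copy, while both copies contribute for ABA2 and CYP707A1.

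Other genes of both pathways were read in the same columns. Of the further GA metabolism genes (KO, KAO and the remaining GA20ox and GA2ox loci), 10 of 42 copies were compared, and 5 were higher (background 10.1%) and 0 lower (16.9%) on the filial side, with 3 to 6 higher under the other scalings. The median difference of the 10 was 1.51, against -0.17 for all genes compared. GA20ox4 BnaA09g13940D and BnaAnng19660D, GA2ox8 BnaC03g64300D, GA2ox3 BnaA04g20250D and KAO1 BnaA10g03180D passed the filter only with their filial columns. The count and the median are therefore partly fixed by the filter. The GA20ox4 copy BnaA09g13940D had 333 FPKM in CZE, 1 in PEN and 0 in the other 5 compartments, above any GA20ox copy among the members. It shared that compartment with GA3ox4 BnaA02g19820D, and GA20ox5 copies summed to 29 FPKM there and to 0 in each other column. Other GA20ox4 copies summed to 37 FPKM in MCE. Inactivating enzymes were present beside them, with GA2ox8 BnaC03g64300D at 20 FPKM in CZE and 11 in PEN. KAO2, which completes the first GA, was highest in EP: BnaC04g12350D had 90 FPKM in EP and at most 4 in another compartment, beside the GA2ox2 copies. Copies of KAO1, the other KAO locus, summed to 28 FPKM in PEN, 20 in MCE and 0 in EP.

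GA perception and signalling genes, the GID1 receptors, the DELLA repressors and SLY1, gave 21 copies to compare. On the filial side 1 was higher (background 10.1%) and 6 were lower (16.9%), with a median difference of -0.72, against -0.17 for all genes. Against the other 6 compartments, ISC had 9 copies higher (15.4%) and 0 lower (6.99%), OSC 9 higher (14.8%) and 1 lower (10.4%), and CZE 0 higher (13.6%) and 6 lower (15.5%). The direction of each of these 4 comparisons was the same under the 3 other scalings. The remaining compartments did not divide by filial and maternal origin. MCE had 7 copies higher (19.4%) and 1 lower (18.2%), and EP 6 higher (20.1%) and 3 lower (17.2%). PEN had 0 higher (13.7%) and 4 lower (11.4%), and the maternal CPT 2 higher (16.5%) and 3 lower (11.2%). The DELLA copy RGL2 BnaC05g47770D was at 0 in all 4 filial compartments, against 61 FPKM in OSC, 12 in ISC and 6 in CPT. It passed the filter only with its maternal columns. Of 8 copies of RGA, another DELLA, BnaC07g20900D and BnaA09g18700D were listed at 0 in PEN and CZE, where GA3ox4 BnaA02g19820D was present, and at 18 and 17 FPKM in MCE. All RGA copies together summed to 3 FPKM in PEN, 0 in CZE and 51 in MCE.

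Of the further ABA metabolism and transport genes, 6 of 16 copies compared were higher (background 16.5%) and 1 lower (11.2%) in CPT than in the other 6 compartments, with 6 or 7 higher under the other scalings. Their median difference was 1.18, against -0.07 for all genes. ABA4, needed to make neoxanthin before the NCED step, summed to 311 FPKM there and to at most 128 in any other compartment. The ABA exporter ABCG25 copy BnaA07g29760D had 74 FPKM in CPT, 22 in MCE and 0 in PEN. The ABA2 copy BnaA06g01590D, at 73 FPKM, was also highest there, whereas NCED copies summed to 9 FPKM. Copies of NCED2, a locus outside the members, summed to 25 FPKM in PEN, 8 in CZE, 6 in CPT and 0 in the other 4 compartments, while the member NCED copies summed to 0 in PEN, 2 in CZE and 9 in CPT. The ABA receptors, their PP2C phosphatases, SnRK2 kinases and the factors ABI4 and ABI5 gave 1 copy higher (background 10.1%) and 15 lower (16.9%) on the filial side, of 63 compared, with a median difference of -0.53, against -0.17 for all genes. In ISC 21 were higher (15.4%) and 1 lower (6.99%) than in the other 6 compartments, and in OSC 17 were higher (14.8%) and 1 lower (10.4%). In MCE 16 were higher (19.4%) and 10 lower (18.2%), and in EP 7 higher (20.1%) and 13 lower (17.2%). PEN had 6 higher (13.7%) and 12 lower (11.4%), CZE 7 (13.6%) and 12 (15.5%), and CPT 7 (16.5%) and 7 (11.2%). In the whole seed 12 of the 21 GA perception copies were higher (16.1%) and 0 lower (9.6%) than in the 7 compartments, and 21 of the 63 ABA perception copies were higher and 1 lower. The PP2C copy AHG3 BnaA05g27660D had 148 FPKM in MCE and 61 in ISC, the tissues with the highest CYP707A sums, against 1 in PEN and 2 in CZE. Another AHG3 copy, BnaC05g41830D, differed, with 0 FPKM in MCE, 31 in ISC, 11 in OSC and 65 in the whole seed. That copy passed the filter only with its maternal columns.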

How the data were processed

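The authors deposited 1 table with 1 value per gene and group: FPKM rounded by them to whole numbers, treated here as a score (100% of values in the columns used were whole). No unit stands in the header of the whole seed column, and FPKM was assumed. Gene length in bases, an other unit, is also as deposited. Trimmomatic 0.36, HISAT2 and Cufflinks are named, without roles, per the submitters' processing notes. The compartments were read as laser-dissected because of an abbreviation used for the table. How libraries were combined, and the genome build, are not given in the sources used here. Another 1 column of FPKM matched no sample label and was not used. Starts of genes are given 1 base higher than deposited, because 17707 deposited lengths equal the end less the start and 0 exceed it by 1.

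Members and lists were chosen with earlier results of these data known. The table has 101040 genes, 593 of them without compartment values. Comparisons took the 54278 genes that reached 1 FPKM in 2 columns or more and used the difference of mean log2(FPKM + 1). Past the rule of size were differences of 1 or more on that log2 scale with a mean of 5 FPKM or more on the higher side. With 1 column per group, limma, replicate omission and a block could not be run. The calculation was tested on simulated data. Named copies were those at 5 FPKM or more in a column, up to 4 per locus with their values. For the other pathway lists, up to 2 copies past the rule were named in a comparison, those of largest difference. Putative A and C pairs were loci with exactly 1 compared copy of each. Alternatives were a pseudocount of 0.1, no filter, a filter of 5 FPKM, no floor, 3 scalings (common median, common sum without 367 rRNA and organelle genes, quantile), omission of the micropylar endosperm column and, for the highest compartment, a floor of 10 FPKM. Repeating under these scalings the pathway lists, and the count of copies higher in the whole seed than in each compartment, was decided after seeing the data. Software was matplotlib 3.10.9, pandas 2.3.3, numpy 2.4.6 and Python 3.11.15.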

Additional observations from a re-analysis of the deposited data

How the results depend on the processing

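No paired analysis was possible because the table holds 1 combined column per group and no replicate numbers. For the same reason leaving out single replicates was not run. Of the 70 calls of member copies over the 9 comparisons, 45 held under all 3 scalings and 0 turned to the opposite direction. These scalings moved the median difference of all genes by -0.44 log2 (CZE, common sum) to 0.52 (OSC, common sum). Counts of copies are small, and rounding to whole FPKM limits values under 5.

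Percentages in brackets here are shares of all genes called under the same setting. With the common median, filial copies higher were 2 (6.92%), MCE lower 1 (25.2%), CPT lower 2 (8.24%), ISC lower 0 (5.1%) and OSC lower 1 (9.53%). With the common sum, filial copies higher were 1 (7.25%), MCE lower 1 (17.1%), PEN higher 2 (10.1%) and CZE lower 5 (28.5%). OSC higher were 8 (24.4%) and lower 1 (6.27%), and whole seed lower 0 (5.56%). Under quantile normalisation, MCE lower was 1 (17%), CPT lower 3 (11.4%) and OSC lower 1 (10.4%). With no floor of 5 FPKM, filial copies were 7 higher (13%) and 6 lower (22.9%), EP higher 3 (23.9%) and PEN lower 6 (17.6%). CZE had 6 higher (16.1%) and 7 lower (25.4%), and CPT 8 lower (16.7%). OSC had 10 higher (19.1%) and 4 lower (15.7%), and whole seed 4 lower (13%). With no filter, EP higher was 3 (11.4%), the GA2ox2 copies BnaC07g09260D and BnaA07g07480D being added. With a filter of 5 FPKM in 2 columns, MCE higher was 5 (26.1%), OSC higher 2 (22.4%) and whole seed higher 6 (24.1%). Without the MCE column, PEN lower was 1 (11.4%), CZE lower 1 (15.5%), CPT lower 2 (10.9%) and whole seed lower 2 (10.1%). The pseudocount of 0.1 moved none of these counts by over 1.5 times. The cause was not tested in any case.

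The highest compartment was MCE for 4 copies, PEN for 5, CZE for 1 and ISC for 6 with the common median. With the common sum it was PEN for 1, CZE for 1, CPT for 2 and OSC for 6, and with a floor of 10 FPKM PEN for 1 and OSC for 0. Of the 7 enzyme classes, 4 kept their highest compartment with the common median and 4 without their most abundant copy. The A share was 52.4% over the 7 putative pairs and 54.6% over all copies.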
